A study of Mus musculus with 18 samples.

Results

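Collagens and laminins are the main structural proteins of the extracellular matrix, and their transcripts were followed here in cell lines from metastases of mouse pancreatic ductal adenocarcinoma (PDAC). The genes were taken by symbol, as every row whose name begins Col with a chain number or Lam with a chain letter and number. The rule took 46 of the 16383 rows. One of these rows, Col4a3bp, is a lipid transfer protein and no collagen; it lay between 14.4 and 91.0 CPM (reads of a gene scaled to the same library total) and was set aside. The other 45 were 11 fibrillar collagen chains, 8 basement membrane collagen chains, 16 other collagen chains and 10 laminin chains. Of these, 33 reached 1 CPM in at least 4 libraries and were tested, which made 9 fibrillar, 7 basement membrane, 8 other collagen and 9 laminin chains. The 12 that did not were Col2a1, Col24a1, Col4a6, Col9a2, Col9a3, Col13a1, Col14a1, Col17a1, Col23a1, Col25a1, Col28a1 and Lama1.

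RNA was sequenced in 18 libraries from 6 lines, each started from a spontaneous metastasis in a genetically engineered mouse and kept in flat culture in RPMI with fetal serum. The lines 42-3 and 6-2 came from lung, and 42-2, 6-3, 13-2 and G45-2 from liver. Lentivirus brought in either an NT control hairpin or 1 of 2 hairpins against Gstt1, a glutathione S-transferase. Cells were then kept in puromycin for 48 hours and harvested after 1 split, so the controls had also been infected and selected. The libraries formed 8 culture sets of 1 NT control and 1 or 2 knockdowns each, with 2 sets each for 42-3 and 42-2. In all there were 8 NT controls, 6 libraries of shRNA 1 and 4 of shRNA 2. Every line carried p53F/+ (Tp53F/+ in most labels) with p48-Cre (p48+ in most labels), in which recombination is driven from a gene of pancreatic progenitors. All lines but 13-2 also carried SIRT6F/F, so no comparison here has a set without the p53 allele, and the allele of SIRT6 is not balanced over the lines. The labels do not say whether a line is 1 clone or whether the libraries of 1 set came from separate cultures. What the p-values weigh is therefore the spread among these libraries, and that spread may be technical.

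Collagens are trimers of α chains. Fibrillar collagens, such as types I, III and V, build the tensile fibres of stroma and are classically products of fibroblasts. Type IV collagen is the network collagen of basement membranes and is made by epithelial and endothelial cells among others, together with laminins, which are trimers of an α, a β and a γ chain. In PDAC a dense collagen stroma surrounds the tumour cells, and carcinoma cells themselves can contribute basement membrane chains. A trimer can only form where each of its chains is made, so the chain transcripts are described below by the trimers they belong to.

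Library totals ran from 8411436 to 25552912 reads, and 3 reads were worth between 0.117 and 0.357 CPM. Values below this rest on 0 to 3 reads. Gstt1 was lower in 10 of 10 knockdown libraries, at 0.613% to 75.4% of the control labelled for the same set. The 42-2 controls held little Gstt1 to begin with, at 2.67 CPM in the first and 0.616 CPM in the second. The other controls were at 24.3 to 52.5 CPM. shRNA 1 left 75.4% in 6-3 and 54.5% in G45-2, so Gstt1 was only partly lowered there. In 5 of the 8 sets the control and knockdown libraries differed in at least 2 of 7 transcripts that mark a line's identity (4 Y-linked genes, Xist, Cdkn2a and Cdkn2b), by limits that were chosen after the values were seen. Such libraries may not come from the same line as labelled, and a difference between them cannot then be told apart from a difference between lines. These were both 42-3 sets, 6-2, 13-2 and the first 42-2 set, so all 3 lung sets are among them. The sets that remain are the second 42-2 set, 6-3 and G45-2. Of these, G45-2 differed in 1 of the 7 transcripts. It was the Y-linked Kdm5d, at 29.8 CPM in the control and at 0 and 0.0621 CPM in the knockdowns. Each fit of a collagen or laminin chain named for small p is given below with and without the 5 sets where that can be done. In the sets that remain, Gstt1 was low in the 42-2 control and only partly lowered by shRNA 1 in 6-3 and G45-2. shRNA 2 lowered it to 0.982% in 6-3 and 11.8% in G45-2. Averaged over the hairpins, values without the 5 sets therefore cannot show whether a knockdown difference holds. Other genes and cell type markers are given with all sets only. The 2 NT controls of line 42-2 also stood apart in Xist, at 0.0494 CPM in the first and 41.7 CPM in the second. All 8 epithelial markers were in the table, with summed levels of 380 to 14492 CPM in NT controls and 256 to 7643 CPM in knockdowns. Of 9 fibroblast markers 7 were in the table and 5 reached 10 CPM, with sums of 2.11 to 938 CPM in NT controls and 1.17 to 1032 CPM in knockdowns. In bulk RNA, fewer cells of a type and less RNA per cell cannot be told apart.

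Per kilobase of exon, the most abundant members were components of basement membranes. Col4a1 had a median of 100.4 CPM per kb over the 18 libraries, Col18a1 97.5, Lamb1 81.1, Col4a2 53.7 and Lamc1 42.4. Among fibrillar collagens Col5a1 had a median of 17.8 CPM per kb, while Col3a1 had 2.74 but ran from 0 to 1093. Within the fibrillar class Col5a1 was the highest chain per kb in 9 libraries, Col3a1 in 6 and Col1a1 in 3. Summed by class, laminin chains lay between 1031 and 2131 CPM and basement membrane collagens between 386 and 2366 CPM, whereas fibrillar collagens spanned 76.1 to 6730 CPM and the other collagens 57.9 to 2724 CPM. The members varied more between libraries than most genes did. The standard deviation of log2(CPM + 1) over the 18 libraries had a median of 1.22 over the 33 tested members and of 0.57 over all 12931 tested genes, and 30 of the 33 were above the latter. It was highest for Col3a1 at 4.65, followed by Lamb3 at 3.14 and Col6a2 at 2.67, and lowest for Lamc1 at 0.50.

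**Figure D1:**
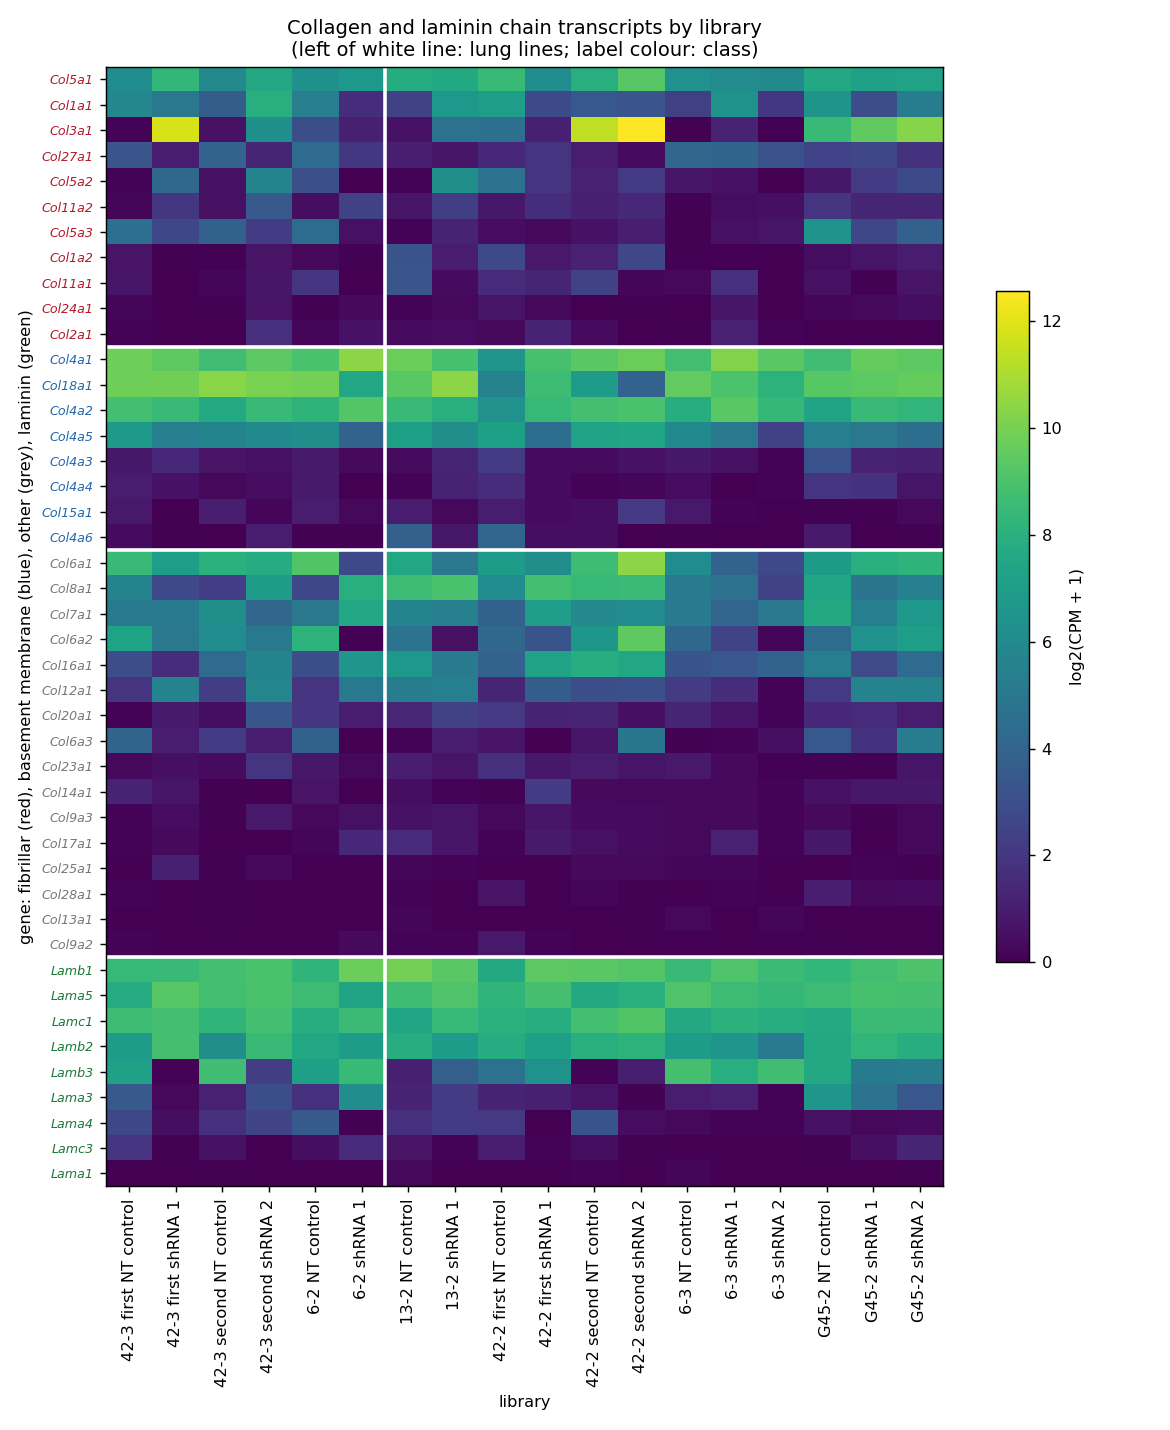
Level of 44 of the 45 collagen and laminin chains as log2(CPM + 1), with genes in rows by class and the 18 libraries in columns, lung lines to the left of the white line. Col4a1, Lamb1, Lama5 and Lamc1 are high throughout, while Col3a1 goes from 0 to 6083 CPM and Lamb3 from 0.0770 to 463 CPM.

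Type IV collagen came as Col4a1 and Col4a2, the 2 chains of its common trimer, in every library. Their genes are neighbours on opposite strands, and their start sites in the RefSeq annotation of GRCm38.p6 lie 21 bases apart. The windows of 250 bases before to 50 bases after each start are printed because they share 78 bases, a stretch that holds both start sites. Each gene starts inside the window of the other, so the first bases of the 2 annotated transcripts overlap. Each is written 5′ to 3′ on its own strand, with the shared bases in capitals, which are the reverse complement of each other. The Col4a1 window is chr8:11312777-11313076 on the minus strand and the Col4a2 window chr8:11312555-11312854 on the plus strand, in a build that differs from the mm9 of the expression values.
Col4a1: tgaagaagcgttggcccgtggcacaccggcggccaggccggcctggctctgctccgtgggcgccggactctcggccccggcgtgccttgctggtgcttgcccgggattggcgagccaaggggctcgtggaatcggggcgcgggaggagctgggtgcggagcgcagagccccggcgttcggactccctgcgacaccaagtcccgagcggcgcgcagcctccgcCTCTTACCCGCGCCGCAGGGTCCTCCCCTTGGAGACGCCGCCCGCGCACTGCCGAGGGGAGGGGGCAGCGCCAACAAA
Col4a2: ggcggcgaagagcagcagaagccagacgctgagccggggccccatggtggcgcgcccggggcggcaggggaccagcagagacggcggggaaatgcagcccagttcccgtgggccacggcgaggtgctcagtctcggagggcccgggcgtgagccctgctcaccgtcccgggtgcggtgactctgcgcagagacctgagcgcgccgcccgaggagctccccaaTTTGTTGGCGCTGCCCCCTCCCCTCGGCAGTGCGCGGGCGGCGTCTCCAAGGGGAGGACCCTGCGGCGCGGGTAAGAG

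Col4a1 was at 902 CPM in the control and 711 CPM in the knockdown of the first 42-3 set, 416 and 669 in the second, and 506 and 1334 in 6-2. Its levels in the liver lines were 859 and 474 CPM in 13-2, 93.5 and 488 in the first 42-2 set, 643 and 860.2 in the second, 432, 1171 and 659 in 6-3, and 414, 771 and 682 in G45-2. The NT control of the first 42-2 set stood below every other library, and the ranges of NT controls (93.5 to 902 CPM) and knockdowns (474 to 1334 CPM) overlapped. Col4a2, its partner chain, was at 447 CPM in the control and 353 CPM in the knockdown of the first 42-3 set, 202 and 353 in the second, and 292 and 593 in 6-2. Col4a2 in the liver lines was at 367 and 244 CPM in 13-2, 81.0 and 340.1 in the first 42-2 set, 468 and 491 in the second, 223, 652 and 325 in 6-3, and 162, 357 and 304 in G45-2. Again the first 42-2 control was lowest. The ratio of Col4a1 to Col4a2 per kb stayed between 1.12 and 2.49 with a median of 1.93, and was above 1 in 18 of 18 libraries. The plot of chain pairs shows these points as 1 narrow band, the tightest of the 3 pairs drawn.

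**Figure D2:**
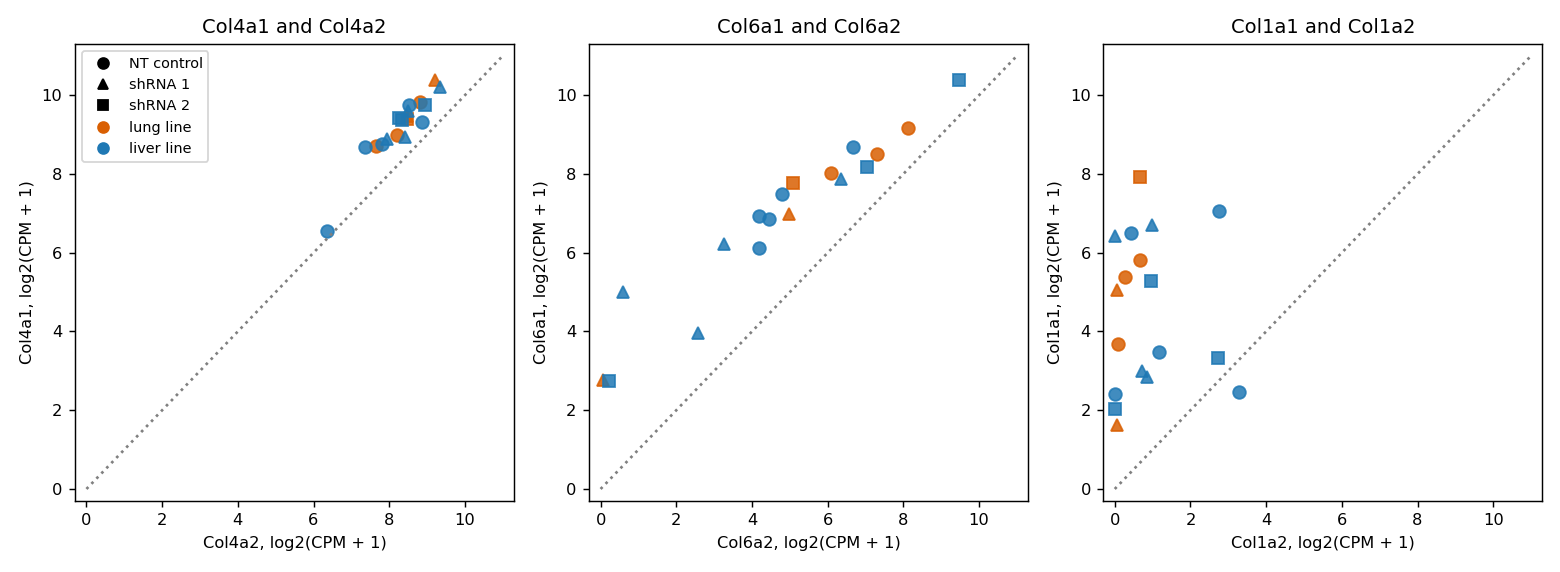
Levels of 2 chains of 1 collagen type against each other, as log2(CPM + 1), with 1 point per library, coloured by site and shaped by hairpin; the dotted line marks equal CPM. Col4a1 and Col4a2 lie along a band in all 18 libraries, Col6a1 exceeds Col6a2 in all 18, and Col1a1 ranges from 2.10 to 240 CPM while Col1a2 stays at or below 8.75 CPM.

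The second pair of type IV chains, Col4a5 and Col4a6, which share an X-linked locus and build the network of smooth muscle and some epithelial basement membranes, came apart. Col4a5 was at 108 CPM in the control and 41.4 CPM in the knockdown of the first 42-3 set, 50.2 and 64.3 in the second, and 73.1 and 15.1 in 6-2. For the liver lines the Col4a5 values were 138 and 73.2 CPM in 13-2, 139.7 and 22.4 in the first 42-2 set, 155 and 165 in the second, 64.6, 32.1 and 4.41 in 6-3, and 42.2, 30.6 and 22.5 in G45-2. The 7 lowest values were from knockdowns, down to 4.41 CPM, but the knockdown of the second 42-2 set was the highest of all, so the groups overlapped. Col4a6 was above 10 CPM only in the NT controls of 13-2 (13.5 CPM) and of the first 42-2 set (16.2 CPM), and below the testing threshold elsewhere; the starts of the 2 genes lie 1343 bases apart and their windows share no base. Col4a3 and Col4a4, the chains of the glomerular and alveolar basement membrane, reached at most 8.12 and 2.82 CPM.

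Col18a1, the basement membrane proteoglycan chain that contains endostatin, was at or above Col4a1 per kb in 8 of 18 libraries and ranged more widely. It was at 891 CPM in the control and 917 CPM in the knockdown of the first 42-3 set, 1298 and 1064 in the second, and 989 and 179 in 6-2. Col18a1 in the liver lines was at 649 and 1357 CPM in 13-2, 48.4 and 406 in the first 42-2 set, 121 and 14.2 in the second, 757, 511 and 279.7 in 6-3, and 640.3, 676 and 774 in G45-2. The 3 lowest values were those of both NT controls and the shRNA 2 library of line 42-2, followed by the 6-2 knockdown. Col15a1, its closest relative, did not exceed 3.23 CPM.

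The laminin chains divided into an even and an uneven group. Lama5, Lamb1 and Lamc1 together form the broad epithelial and vascular laminin that stabilises basement membranes. Lama5 was at 214 CPM in the control and 634 CPM in the knockdown of the first 42-3 set, 427 and 489.9 in the second, and 398 and 158 in 6-2. Across the liver lines Lama5 was at 401 and 556 CPM in 13-2, 297 and 467 in the first 42-2 set, 195 and 253 in the second, 552, 391 and 334 in 6-3, and 387, 475 and 469 in G45-2. Lamb1 was at 342 CPM in the control and 348 CPM in the knockdown of the first 42-3 set, 454 and 493 in the second, and 294 and 845 in 6-2. No library was without these chains, and Lama5 stayed within 158 to 634 CPM. The liver lines had Lamb1 at 986 and 654 CPM in 13-2, 199.88 and 687 in the first 42-2 set, 662 and 597 in the second, 366, 547 and 379.7 in 6-3, and 324, 435 and 528 in G45-2. Lamc1, the γ chain common to most laminins, was at 388 CPM in the control and 452 CPM in the knockdown of the first 42-3 set, 303 and 454 in the second, and 229 and 373 in 6-2. Among the liver lines Lamc1 was at 167 and 343 CPM in 13-2, 262 and 226 in the first 42-2 set, 455 and 561 in the second, 193, 272 and 223 in 6-3, and 204, 379 and 385 in G45-2. Per kb, Lamb1 was above Lama5 in 18 of 18 libraries and above Lamc1 in 17 of 18. Lamb2, the β chain of neuromuscular and kidney basement membranes, was more variable. It was at 119 CPM in the control and 466 CPM in the knockdown of the first 42-3 set, 73.6 and 367 in the second, and 178 and 119 in 6-2. Lamb2 in the liver lines was at 225 and 122 CPM in 13-2, 219.6 and 139 in the first 42-2 set, 244 and 280.0 in the second, 122, 96.3 and 36.5 in 6-3, and 192, 311 and 224 in G45-2. Both 42-3 knockdowns were above every other library for Lamb2, including the controls labelled for their sets.

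Lama3 and Lamb3 are chains of the epithelial adhesion laminin that anchors hemidesmosomes. Lamb3 was at 148 CPM in the control and 0.0783 CPM in the knockdown of the first 42-3 set, 425 and 3.92 in the second, and 140.4 and 348 in 6-2. The liver lines had Lamb3 at 1.16 and 13.2 CPM in 13-2, 25.7 and 87.7 in the first 42-2 set, 0.0770 and 1.10 in the second, 463, 232 and 419 in 6-3, and 189.9, 34.2 and 38.2 in G45-2. In 4 libraries Lamb3 did not exceed 1.16 CPM, among them both libraries of the second 42-2 set, while all 3 libraries of 6-3 were at 232 CPM or more. Lama3 was at 10.4 CPM in the control and 0.196 CPM in the knockdown of the first 42-3 set, 1.21 and 7.01 in the second, and 2.21 and 70.2 in 6-2. Lama3 in the liver lines was at 1.30 and 3.53 CPM in 13-2, 1.28 and 1.12 in the first 42-2 set, 0.616 and 0.0687 in the second, 1.02, 1.19 and 0.0832 in 6-3, and 101, 26.97 and 9.68 in G45-2. Lama3 was below Lama5 per kb in 18 of 18 libraries. Beside these values, the epithelial cadherin gene Cdh1 was at 503 and 1.17 CPM in the control and knockdown of the first 42-3 set, where Lamb3 had 148 and 0.0783 CPM. In the second 42-2 set, where Lamb3 was also low, Cdh1 had 9.70 and 7.63 CPM. It had 311 CPM in the 13-2 control, where Lamb3 was at 1.16 CPM. From control to knockdown, Cdh1 fell with Lamb3 in both 42-3 sets (Cdh1 from 249 to 53.7 CPM in the second), 6-3 and G45-2. In the other sets Cdh1 fell while Lamb3 rose. The epithelial markers parted in 13-2, where Cdh1 fell from 311 to 24.4 CPM and Krt8 rose from 346 to 1774 CPM. Epcam, Cldn4 and Cldn7 fell there too, and Krt18, Krt19 and Esrp1 rose. The part of epithelial state in the Lamb3 levels was not tested. Lama4, an endothelial and mesenchymal α chain, reached at most 10.8 CPM, Lamc3 2.65 CPM and Lama1 0.217 CPM.

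**Figure D3:**
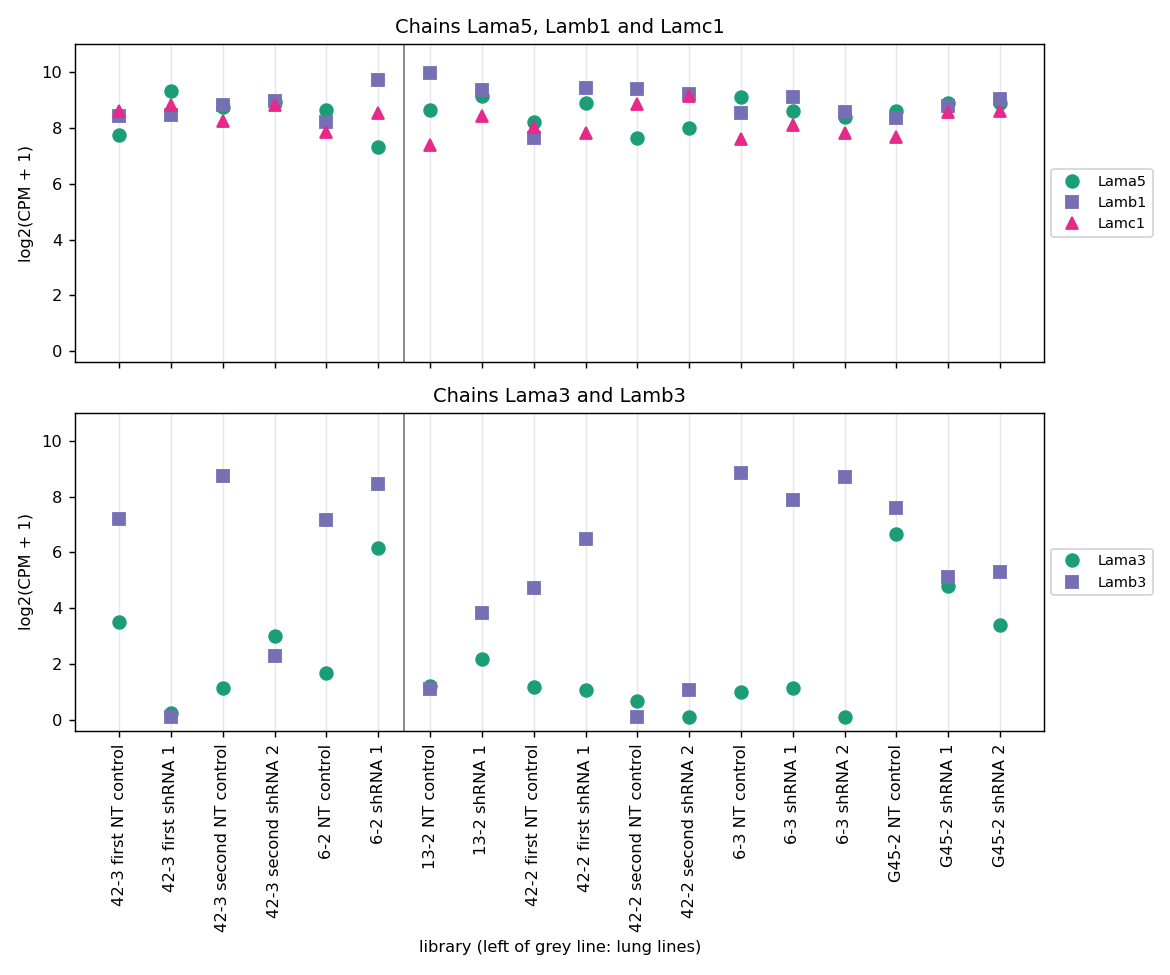
Levels of 5 laminin chains as log2(CPM + 1) in the 18 libraries, lung lines to the left of the grey line; the upper panel holds Lama5, Lamb1 and Lamc1 and the lower panel Lama3 and Lamb3. The upper chains lie between 158 and 986 CPM in every library, whereas in the lower panel Lamb3 runs from 0.0770 to 463 CPM and Lama3 from 0.0687 to 101 CPM.

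Fibrillar collagens were patchy, and the 2 chains of type I collagen did not come together. Type I collagen, the main fibre of stroma, is normally a trimer of 2 Col1a1 chains and 1 Col1a2 chain. Col1a1 was at 55.7 CPM in the control and 32.3 CPM in the knockdown of the first 42-3 set, 11.9 and 239.7 in the second, and 40.7 and 2.10 in 6-2. Col1a1 in the liver lines was at 4.56 and 102 CPM in 13-2, 133 and 6.12 in the first 42-2 set, 10.2 and 9.07 in the second, 4.29, 85.5 and 3.08 in 6-3, and 89.9, 6.91 and 37.9 in G45-2. Col1a2 was highest in the 13-2 NT control at 8.75 CPM, with 5.78 CPM in the first 42-2 control and 5.57 CPM in the second 42-2 knockdown, and had no read in the 3 libraries of 6-3. Per kb, Col1a1 was above Col1a2 in 17 of 18 libraries, the exception being the 13-2 control. Over the 15 libraries with Col1a2 reads the ratio had a median of 37.0 and ran from 0.470 to 744.

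Col3a1, the fibrillar chain of pliable stroma that forms a trimer with itself, had the widest range of all members. Col3a1 was at 0.0736 CPM in the control and 3625 CPM in the knockdown of the first 42-3 set, 0.472 and 75.6 in the second, and 7.11 and 1.18 in 6-2. Col3a1 in the liver lines was at 0.506 and 25.5 CPM in 13-2, 23.4 and 1.12 in the first 42-2 set, 2681 and 6083 in the second, 0.0681, 1.35 and 0 in 6-3, and 357, 729 and 1236 in G45-2. In 6 libraries it was at 357 CPM or more, and in 8 it did not exceed 1.35 CPM. Among the fibroblast markers, Pdgfrb is a receptor of stromal cells. It was at 219 CPM in the first 42-3 knockdown and at 181 and 329 CPM in the second 42-2 set. G45-2 had 15.8, 22.4 and 43.9 CPM. These were the libraries of highest Col3a1. Pdgfrb was also at 30.7 CPM in the 13-2 control and 15.4 CPM in the first 42-2 control. Col3a1 was there at 0.506 and 23.4 CPM. The second 42-3 knockdown had 37.4 CPM of Pdgfrb and the 13-2 knockdown 11.2 CPM, with Col3a1 at 75.6 and 25.5 CPM. In all other libraries Pdgfrb did not exceed 0.874 CPM. Summed over the 7 fibroblast markers in the table, the first 42-3 knockdown had 223 CPM, the second 42-2 set 604 and 1032 CPM, and G45-2 137, 24.4 and 69.9 CPM. The sum was also high without Col3a1 at such levels, at 938 CPM in the first 42-2 control and 426 CPM in the 13-2 knockdown. The markers did not go together: Acta2, the smooth muscle actin, was at 2.19 CPM and Prrx1 at 0.0391 CPM in the first 42-3 knockdown, but at 324 and 621 CPM (Acta2) and 53.4 and 55.5 CPM (Prrx1) in the second 42-2 set. Pdgfra was at 1.29 CPM in the former and at 43.4 and 12.4 CPM in the latter, and Postn did not exceed 4.403 CPM in any library. The stromal proteoglycan genes were low: Dcn did not exceed 1.31 CPM in any library, and Lum was at 0 or within 0.0795 CPM in all but the second 42-2 knockdown, which had 11.5 CPM. The part of these cell type markers in the Col3a1 levels was not tested. In the second 42-2 knockdown Col3a1 was at 6083 CPM with Col1a1 at 9.07 CPM, so these 2 fibre collagens were not high together there.

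The upstream windows of Col3a1 and Col1a2 are printed because these 2 stromal genes differed widely in their highest level, Col3a1 reaching 6083 CPM and Col1a2 at most 8.75 CPM. Both are from GRCm38.p6 on the plus strand, chr1:45311288-45311587 for Col3a1 and chr6:4505368-4505667 for Col1a2. Capitals mark matches, on either strand, to the 5 short motifs searched: the TATA box TATAAA, the CCAAT box (its own letters), the GC box GGGCGG, the AP-1 site letters TGACTCA and the repressor-type E-box CACCTG, no 2 of which share letters in these windows.
Col3a1: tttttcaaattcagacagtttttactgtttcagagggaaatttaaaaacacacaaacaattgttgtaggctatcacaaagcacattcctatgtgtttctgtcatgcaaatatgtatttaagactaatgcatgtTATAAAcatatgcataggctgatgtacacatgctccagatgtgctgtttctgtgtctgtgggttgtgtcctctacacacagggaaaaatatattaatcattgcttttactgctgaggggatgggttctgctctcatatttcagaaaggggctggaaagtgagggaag
Col1a2: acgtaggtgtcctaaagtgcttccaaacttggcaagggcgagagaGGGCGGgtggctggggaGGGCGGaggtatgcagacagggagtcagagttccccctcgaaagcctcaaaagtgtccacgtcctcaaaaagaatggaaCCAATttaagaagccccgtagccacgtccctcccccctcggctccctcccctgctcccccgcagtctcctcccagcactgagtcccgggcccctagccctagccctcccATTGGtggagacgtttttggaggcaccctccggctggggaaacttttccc

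The Col3a1 window held 1 TATAAA and none of the other letters searched, and the Col1a2 window held CCAAT on each strand and GGGCGG at 2 places. RefSeq windows were at hand for 32 of the 45 members, 35 windows in all; Col1a1, Col5a2, Lama3 and Lamc1 were among those without. Over these 35 windows TATAAA was in 4, CCAAT in 12, GGGCGG in 21, TGACTCA in 1 and CACCTG in 6. Of all 32851 windows of that length 13.6%, 37.4%, 35.7%, 5.20% and 20.2% held them, in the same order. These are matches of letters and not binding sites.

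Type V collagen starts fibres and sets their width. Its main chain Col5a1 was at 67.5 CPM in the control and 324 CPM in the knockdown of the first 42-3 set, 60.4 and 192 in the second, and 79.7 and 104 in 6-2. Col5a1 in the liver lines was at 217 and 201 CPM in 13-2, 365 and 67.2 in the first 42-2 set, 243 and 626 in the second, 79.9, 64.8 and 63.8 in 6-3, and 192, 147 and 152 in G45-2. It was at 60.4 CPM or more in every library, and its 2 highest values were in line 42-2. The partner chain Col5a2 was at 0.0736 CPM in the control and 17.1 CPM in the knockdown of the first 42-3 set, 0.472 and 48.1 in the second, and 7.31 and 0 in 6-2. Col5a2 in the liver lines was at 0.0723 and 73.3 CPM in 13-2, 25.7 and 2.69 in the first 42-2 set, 1.23 and 3.37 in the second, 0.613, 0.556 and 0 in 6-3, and 0.749, 3.46 and 6.02 in G45-2. Only the 13-2 and second 42-3 knockdowns reached 48.1 CPM of Col5a2 or more. Col5a3, a minor chain, was at 23.5 CPM in the control and 5.56 CPM in the knockdown of the first 42-3 set, 13.8 and 3.69 in the second, and 20.6 and 0.461 in 6-2. The liver lines had Col5a3 at 0.0723 and 1.34 CPM in 13-2, 0.346 and 0.224 in the first 42-2 set, 0.539 and 1.10 in the second, 0.0681, 0.477 and 0.666 in 6-3, and 82.6, 5.43 and 13.7 in G45-2. The G45-2 control was far above the other liver controls. Of the remaining fibrillar chains Col27a1 reached 19.7 CPM, Col11a2 10.3 CPM, Col11a1 8.90 CPM, Col2a1 2.26 CPM and Col24a1 0.715 CPM.

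Among the other collagens, type VI forms beaded filaments that link basement membrane to stroma and needs 1 each of 3 chains. Col6a1 was at 360.4 CPM in the control and 125 CPM in the knockdown of the first 42-3 set, 259.8 and 217 in the second, and 571 and 5.78 in 6-2. Col6a1 in the liver lines was at 177 and 30.9 CPM in 13-2, 120.5 and 73.6 in the first 42-2 set, 412 and 1344 in the second, 69.0, 14.6 and 5.74 in 6-3, and 115, 235 and 289 in G45-2. Col6a2 was at 155 CPM in the control and 30.4 CPM in the knockdown of the first 42-3 set, 66.6 and 32.7 in the second, and 278 and 0.0512 in 6-2. The 2 chains were mostly high and low in the same libraries, though not in strict order. Col6a2 in the liver lines was at 26.7 and 0.495 CPM in 13-2, 17.3 and 8.51 in the first 42-2 set, 101 and 708 in the second, 17.2, 4.93 and 0.166 in 6-3, and 21.0, 81.2 and 131 in G45-2. Col6a1 per kb was above Col6a2 in 18 of 18 libraries, by a median of 6.00 times and a range of 2.78 to 166 times. Col6a3, the third chain, was at most 37.7 CPM, in the shRNA 2 library of G45-2, and was without reads in the knockdowns of 6-2 and of the first 42-2 set; per kb Col6a1 exceeded it by a median of 213 times.

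Col8a1 is a short-chain network collagen of vessels and of the cornea. It was at 47.5 CPM in the control and 5.91 CPM in the knockdown of the first 42-3 set, 3.91 and 118 in the second, and 5.57 and 236 in 6-2. Col8a1 in the liver lines was at 392 and 492 CPM in 13-2, 66.5 and 429 in the first 42-2 set, 343 and 379.5 in the second, 35.02, 25.6 and 4.58 in 6-3, and 168, 27.7 and 44.2 in G45-2. Of the 6 libraries of 13-2 and 42-2, 5 were at 343 CPM or more, above every library of the other lines. Col7a1, the anchoring fibril of skin and other stratified epithelia, was at 35.9 CPM in the control and 35.2 CPM in the knockdown of the first 42-3 set, 76.1 and 16.8 in the second, and 30.3 and 183 in 6-2. Col7a1 in the liver lines was at 49.4 and 43.8 CPM in 13-2, 13.9 and 129.7 in the first 42-2 set, 60.1 and 66.7 in the second, 36.6, 16.4 and 31.9 in 6-3, and 200.23, 42.4 and 104 in G45-2. It was present in every library, highest in the G45-2 control. Col16a1, a fibril-associated chain, was at 6.85 CPM in the control and 2.15 CPM in the knockdown of the first 42-3 set, 20.1 and 50.8 in the second, and 7.24 and 96.8 in 6-2. Col16a1 in the liver lines was at 104 and 34.8 CPM in 13-2, 14.4 and 148 in the first 42-2 set, 226 and 187 in the second, 8.52, 9.54 and 14.6 in 6-3, and 40.2, 6.70 and 20.1 in G45-2. Col12a1, another fibril-associated chain that coats type I fibres, was at 2.87 CPM in the control and 48.4 CPM in the knockdown of the first 42-3 set, 3.91 and 53.5 in the second, and 2.82 and 33.3 in 6-2. Here all 3 lung knockdowns stood above all 3 lung controls. Col12a1 in the liver lines was at 37.2 and 42.0 CPM in 13-2, 1.48 and 11.9 in the first 42-2 set, 7.01 and 7.29 in the second, 3.61, 2.15 and 0.0832 in 6-3, and 3.46, 48.7 and 48.5 in G45-2. Of the rest, Col20a1 reached 9.27 CPM, Col14a1 3.51 CPM and Col23a1 2.73 CPM, and the remaining 6 chains did not exceed 1.81 CPM.

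Repeat NT controls of 1 line differed widely in these levels. Between the 2 controls of line 42-2, 19 of the 33 tested members (57.6%) differed by over 1 on the log2(CPM + 1) scale, against 26.3% of all tested genes. Col3a1 was 6.78 higher in the second control, Col16a1 3.88, Col4a1 2.77 and Col4a2 2.52, while the difference was -4.63 for Lamb3 and -3.59 for Col1a1. Both type IV chains thus differed together. Between the 2 controls of 42-3 the share was 13 of 33 (39.4%) against 14.6% of genes, led by Col8a1 at -3.31, Lama3 at -2.36 and Col1a1 at -2.13. Differences between the 2 knockdowns of 1 set were of a like kind. In G45-2, 7 members (21.2%) differed by over 1 between the hairpins, against 4.52% of genes, and in 6-3 11 (33.3%) against 20.5%. With 1 library each, these differences have no replicate check.

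To ask whether the matrix genes differed with the organ of the metastasis, the NT controls were averaged by line and the 2 lung lines compared with the 4 liver lines. Limma called 4 of 12931 genes (0.0309%) at an adjusted p under 0.05, and none of the 33 members; 1692 genes (13.1%) and 5 members had an unadjusted p under 0.05. On recovered reads edgeR called 1 gene (0.00773%), and 1757 genes (13.6%) had an unadjusted p under 0.05. In 6 of the 33 members the line means of lung and liver did not overlap, against 25.9% of all tested genes. The NT controls of both lung lines belong to sets of differing identity transcripts, so the comparison cannot be made without such sets. The 6 members were Col18a1, Col6a1 and Col6a2, higher in lung, and Col5a1, Col12a1 and Col8a1, higher in liver. For Col12a1 the line means barely parted, with up to 3.39 CPM in lung and from 3.46 CPM in liver. Its single controls overlapped, with 1.48 CPM in the first 42-2 control and 3.91 CPM in the second 42-3 control.

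Among the tested members Col6a2, a chain of type VI collagen, had the smallest p of the site comparison. Col6a2 was at 155, 66.6 and 278 CPM in the lung controls and at 26.7, 17.3, 101, 17.2 and 21.0 CPM in the liver controls, and the second 42-2 control was inside the lung range. The difference, lung minus liver, was 2.69 ± 0.49 (SE; limma adjusted p = 0.129). For Col6a1 it was 1.64 ± 0.49 (SE; limma adjusted p = 0.268). The line means of the third chain, Col6a3, overlapped, at 9.69 to 13.8 CPM in lung and 0.0681 to 10.2 CPM in liver. Col8a1 was at 47.5, 3.91 and 5.57 CPM in lung and at 392, 66.5, 343, 35.02 and 168 CPM in liver controls, a difference of -3.78 ± 0.86 (SE; limma adjusted p = 0.201). Its liver values were mostly above the lung values, and only the 6-3 control was below the highest lung control. Among the fibrillar chains the smallest p was that of Col5a1, -1.30 ± 0.49 (SE; limma adjusted p = 0.331), followed by Col27a1 at 1.75 ± 0.88 (SE; limma adjusted p = 0.441). Lung controls of Col5a1 (60.4 to 79.7 CPM) ended just below the lowest liver control (79.9 CPM).

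The basement membrane and laminin chains showed less. Col18a1 was at 1.38 ± 0.90 (SE; limma adjusted p = 0.533), which was 0.60 without line 42-2, whose 2 controls were the lowest. Col4a2 was at 0.39 ± 0.34 (SE; limma adjusted p = 0.632). Of the laminins, Lama4 was at 1.59 ± 0.76 (SE; limma adjusted p = 0.425) and Lamb2 at -0.53 ± 0.36 (SE; limma adjusted p = 0.555). By class, 4 of 7 basement membrane chains, 4 of 9 fibrillar, 5 of 9 laminin and 3 of 8 other collagens were higher in lung, with medians of 0.31, -0.33, 0.22 and -0.40 against -0.05 over all genes. The lines behind these comparisons were few: without line 6-3, Col8a1 (log2 difference -4.43, limma adjusted p = 0.0220) and Col5a1 (-1.68, limma adjusted p = 0.0424) passed the threshold. Fibroblast marker sums were also lower in the lung controls, at 2.22 to 12.1 CPM, than in some liver controls, at 2.11 to 938 CPM, and all 5 tested fibroblast markers had a lower mean in lung; their part in the collagen differences was not tested.

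**Figure D4:**
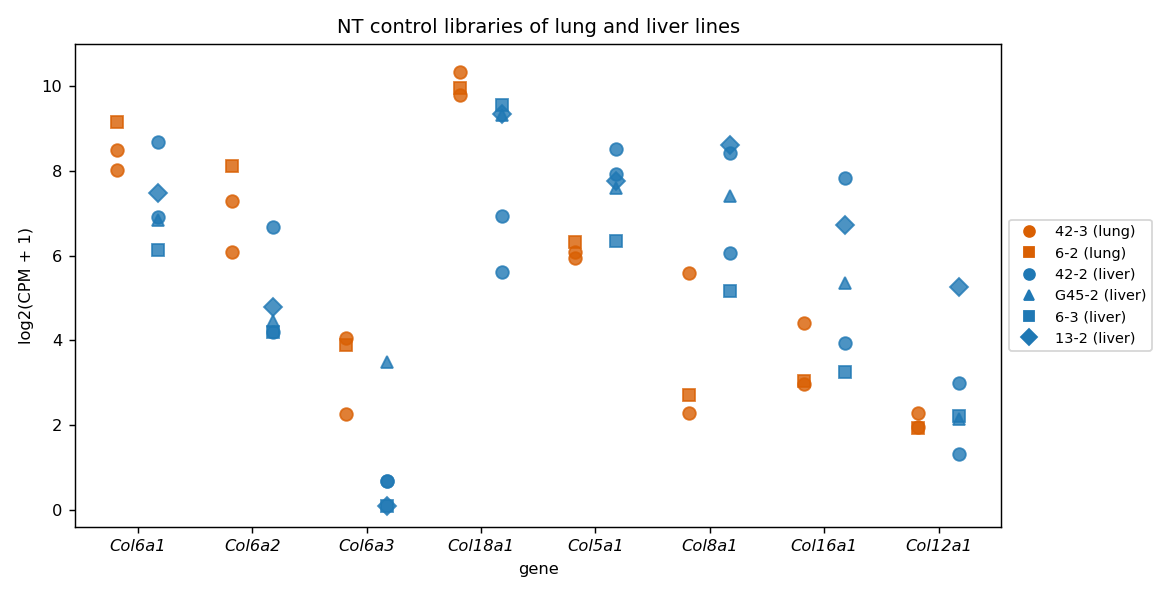
Levels of 8 collagen chains in the 8 NT control libraries as log2(CPM + 1), lung in orange and liver in blue; shape and colour together give the line. Col6a2 is mostly higher and Col8a1 mostly lower in the lung lines, with 1 liver control among the lung values in each, and Col5a1 has lung values up to 79.7 CPM and liver values from 79.9 CPM.

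The main question of the design was what knockdown of Gstt1 did. With the culture set as a block and the 2 hairpins averaged, limma called 5 of 12931 genes (0.0387%), none of them a collagen or laminin; 2216 genes (17.1%) and 8 of 33 members had an unadjusted p under 0.05. With edgeR no gene was called, and 1944 (15%) had an unadjusted p under 0.05. Members were split in direction, with 16 higher and 17 lower in knockdown and a median of -0.07 against -0.03 over all genes. By class, 4 of 9 fibrillar, 2 of 7 basement membrane, 5 of 9 laminin and 5 of 8 other collagen chains were higher, with medians of -0.07, -0.32, 0.16 and 0.05. Beside these, 8 of 8 epithelial markers had a lower fitted level in knockdown, with a median of -1.04 and 2 at an unadjusted p under 0.05, and of 5 tested fibroblast markers 3 were higher and 2 lower. For shRNA 1 alone 7 of 8 epithelial markers were lower (median -0.93), and for shRNA 2 all 8 (median -1.23). No marker of these 2 lists was called, and their part in the matrix differences was not tested.

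The differences of the type IV chains were of both signs, and none passed. Col4a1 was higher in 6 of 8 sets and Col4a2 in the same number, the exceptions of both being the first 42-3 set and 13-2. The fitted difference of Col4a2 was 0.62 ± 0.27 (SE; limma adjusted p = 0.275), and 0.87 (adjusted p = 0.343) without the 5 sets of differing identity transcripts. Col4a5 was lower in 6 of 8 sets. It differed by -1.24 ± 0.42 (SE; limma adjusted p = 0.181), and by -0.90 (limma adjusted p = 0.608) without the 5 sets. Lamc1 was the evenest of these results, higher in 7 of 8 sets by 0.48 ± 0.40 (SD, n = 8 sets) with a fitted difference of 0.49 ± 0.16 (SE; limma adjusted p = 0.176). Without the 5 sets the Lamc1 difference was 0.56 (limma adjusted p = 0.424). Lama4, of low level, was at -1.08 ± 0.48 (SE; limma adjusted p = 0.277).

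Col12a1 had the largest fitted difference of the 2 members of smallest p in each class. It was higher in 7 of 8 sets, by 3.67, 3.47 and 3.17 in the first 42-3, second 42-3 and 6-2 sets, 3.48 in G45-2 and 2.37 in the first 42-2 set, near 0 in 13-2 (0.17) and the second 42-2 set (0.05), and lower in 6-3 (-1.32). The fit gave 1.73 ± 0.60 (SE; limma adjusted p = 0.182), and 0.92 (adjusted p = 0.724) without the 5 sets. Col6a1 was lower in 6 of 8 sets, with -1.22 ± 0.69 (SE; limma adjusted p = 0.385). In 6-2 it stood at 571 CPM in the control and 5.78 CPM in the knockdown. Without the 5 sets the difference of Col6a1 was -0.11 (limma adjusted p = 0.976). In the sets that remained, the second 42-2 control held only 0.616 CPM of Gstt1. In 6-3 and G45-2 shRNA 1 lowered it only partly. The values without the 5 sets therefore cannot show whether the difference of Col12a1 or Col6a1 holds.

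The 2 fibrillar chains of smallest p were of low level. Col27a1, a cartilage fibril chain, was lower in 7 of 8 sets, with -1.11 ± 0.38 (SE; limma adjusted p = 0.178), and -0.39 (limma adjusted p = 0.624) without the 5 sets. Col11a2, another cartilage chain, was higher in 7 of 8 sets with 1.05 ± 0.37 (SE; limma adjusted p = 0.194). Without the 5 sets it was -0.02 (limma adjusted p = 0.992). Gstt1 was low in a control or only partly lowered by shRNA 1 in the sets that remained. These values therefore cannot show whether the difference of Col27a1 or Col11a2 holds. Col3a1 was higher in 6 of 8 sets with a mean of 2.41 ± 4.79 (SD, n = 8 sets), a spread wider than the mean.

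**Figure D5:**
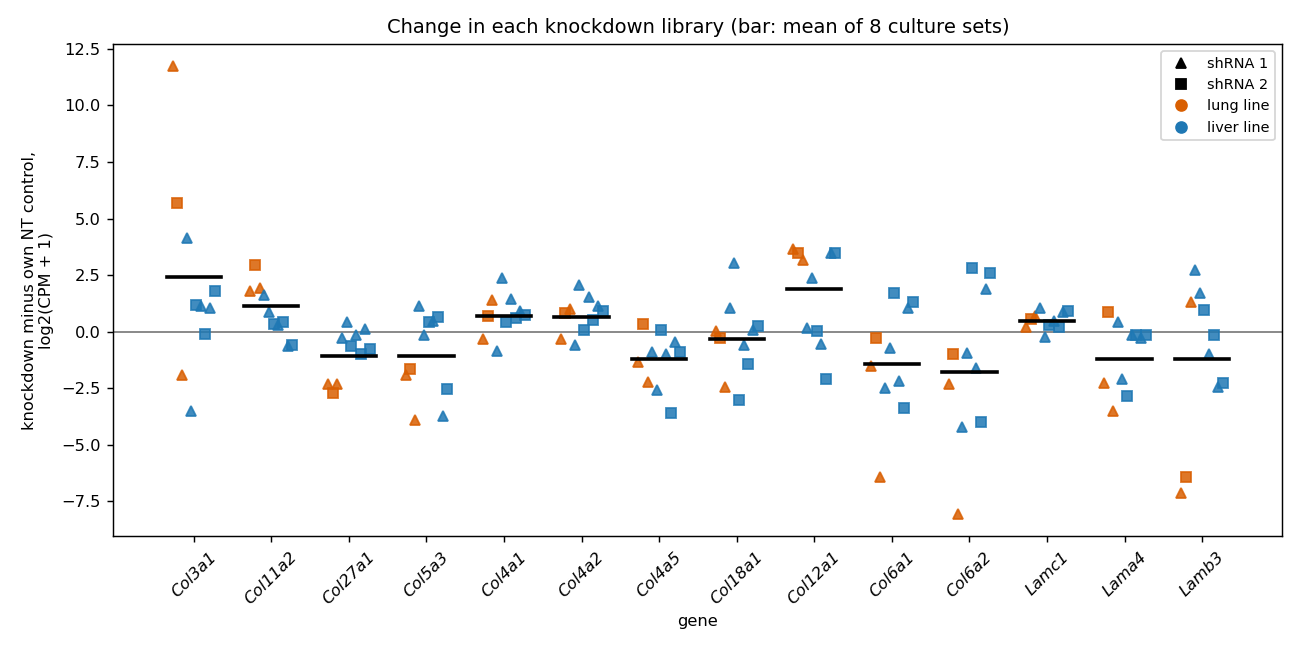
Difference of each knockdown library from the NT control of its own set, on the log2(CPM + 1) scale, for 14 members; colour gives the site, shape the hairpin and the bar the mean of 8 culture sets. The points of Lamc1 lie close together and mostly above 0, whereas those of Col3a1, Lamb3 and Col6a2 spread over both sides.

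The hairpins were also fitted 1 at a time; they share the NT controls, so their values are given beside each other only. For shRNA 1 limma called 0 of 12931 genes (0%), and 2077 genes (16.1%) and 8 of the 33 members had an unadjusted p under 0.05. By edgeR the call was 0 as well, and 1750 genes (13.5%) had an unadjusted p under 0.05. For shRNA 2 limma called 0 genes (0%), and 834 genes (6.45%) and 2 members were below 0.05 unadjusted. By edgeR no gene passed for this hairpin, and 743 genes (5.75%) were below 0.05 unadjusted. Col12a1 was at 2.12 for shRNA 1 and 1.34 for shRNA 2 on the log2 scale, Lamc1 at 0.52 and 0.46, and Col11a2 at 1.09 and 1.01. Col4a5 was at -1.16 and -1.31, and Lama4 at -1.34 and -0.83. These 5 were named for small p in both fits, and their limma adjusted p lay between 0.208 and 0.877. Others were named for 1 hairpin. For shRNA 1 these were Col6a1 at -1.81 ± 0.80 (SE; limma adjusted p = 0.296), Col4a2 at 0.80 ± 0.31 (SE; limma adjusted p = 0.258) and Col5a3 at -1.32 ± 0.64 (SE; limma adjusted p = 0.334); for shRNA 2 they were at -0.63, 0.45 and -0.71. For shRNA 2 they were Col27a1 at -1.44 ± 0.52 (SE; limma adjusted p = 0.715), Col18a1 at -0.94 ± 0.69 (SE; limma adjusted p = 0.863) and Col6a3 at 1.10 ± 0.87 (SE; limma adjusted p = 0.878); for shRNA 1 they were at -0.79, 0.08 and -1.34, so that Col18a1 and Col6a3 had opposite signs. Without the 5 sets of differing identity transcripts shRNA 1 rests on its libraries of 6-3 and G45-2. Gstt1 was at 75.4% and 54.5% of the control there, so these values cannot show whether an shRNA 1 difference holds. The shRNA 1 difference was then 1.36 for Col12a1, 1.23 for Col4a2, 0.65 for Lamc1, -0.09 for Col11a2, -0.11 for Col6a1, -0.33 for Col4a5 and -1.39 for Col5a3. The shRNA 2 difference was then 2.13 for Col6a3, 0.48 for Col12a1, 0.47 for Lamc1, 0.05 for Col11a2, -0.80 for Col27a1, -1.39 for Col18a1 and -1.46 for Col4a5. The differences of Col12a1, Col11a2 and Col27a1 were thus smaller for each hairpin named when these sets were out, and those of Lamc1 and Col5a3 about as large.

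The direct test of shRNA 2 against shRNA 1 gave 0 calls among 12931 genes in limma and 0 in edgeR. Unadjusted, 64 genes (0.495%) and 1 of 33 members were below 0.05 in limma, and 57 genes (0.441%) in edgeR. The 1 member was Col6a3, with a difference of 2.44 ± 1.00 (SE; limma adjusted p = 1.00), and 2.43 without the 5 sets. In the sets with both hairpins Col6a3 was at 2.55 and 37.7 CPM for shRNA 1 and shRNA 2 in G45-2, and at 0.0795 and 0.416 CPM in 6-3. Col6a1 differed by 1.18, Col1a2 by 1.04, Col15a1 by 0.45, Col18a1 by -1.03, Lama3 by -0.85, Col27a1 by -0.64 and Lamb1 by -0.35, all with an adjusted p of 0.9999 in limma. Without the 5 sets Col6a1 was at -0.00421, Col18a1 at -0.74, Lama3 at -0.96, Col27a1 at -0.82 and Lamb1 at -0.21; Col1a2 and Col15a1 were not tested there. A p that misses the threshold does not show that the hairpins act alike. The standard errors of these differences were 1.09 for Col6a1 and 0.79 for Col18a1.

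Whether the knockdown effect differed between lung and liver lines was tested as an interaction. Limma called 65 of 12931 genes (0.503%) and none of the 33 members, and 2541 genes (19.7%) and 8 members had an unadjusted p under 0.05. By edgeR 13 genes (0.101%) passed, and 2235 (17.3%) were below 0.05 unadjusted. All 3 lung sets are among the 5 of differing identity transcripts, so the interaction could not be fitted without them, and site and this mismatch cannot be told apart. Col27a1 had the smallest p. Its lung controls were at 8.84, 14.6 and 19.7 CPM and their knockdowns at 0.978, 1.43 and 3.12 CPM, without overlap. In liver the controls were at 1.08, 1.73, 1.00, 17.0 and 4.84 CPM and the knockdowns at 0.706, 2.69, 0.275, 15.3, 7.99, 5.32 and 2.48 CPM, which overlapped. The lung minus liver difference of the knockdown effect was -2.15 ± 0.49 (SE; limma adjusted p = 0.0686).

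Col11a2 had the opposite sign, at 1.79 ± 0.54 (SE; limma adjusted p = 0.116). Col6a3 differed by -3.60 ± 1.21 (SE; limma adjusted p = 0.148), being lower in all 3 lung sets and on average higher in 4 of 5 liver sets. These liver rises were uneven. In G45-2 the control was at 10.2 CPM and the hairpins went opposite ways, at 2.55 CPM for shRNA 1 and 37.7 CPM for shRNA 2. The controls of 6-3 and 13-2 held 1 read each, and the second 42-2 set went from 0.616 to 28.5 CPM. Col12a1 was at 2.47 ± 1.03 (SE; limma adjusted p = 0.217), with a mean knockdown difference of 3.44 in lung and 0.95 in liver sets. Of the laminins, Lamb3 was at -4.35 ± 1.68 (SE; limma adjusted p = 0.192). Its knockdown difference was -7.11 and -6.44 in the 42-3 sets but 1.30 in 6-2. Without 6-2 the interaction was -7.04 (limma adjusted p = 0.0317), the only member past the threshold when a set was left out. Lung was then line 42-3 alone, counted as 2 sets. Lamb2 was at 1.60 ± 0.67 (SE; limma adjusted p = 0.218), with 1.97 and 2.30 in the 42-3 sets and -0.58 in 6-2. For both laminins the 2 lung lines thus had differences of opposite sign. The basement membrane collagens of smallest p, Col15a1 at -0.70 ± 0.55 (SE; limma adjusted p = 0.507) and Col4a3 at 0.70 ± 0.70 (SE; limma adjusted p = 0.611), are of low level. By class, 7 of 9 fibrillar, 2 of 7 basement membrane, 4 of 9 laminin and 5 of 8 other collagens had a positive interaction, with medians of 0.29, -0.19, -0.04 and 0.67 against 0.02 over all genes. Beside these, all 5 tested fibroblast markers had a positive interaction, with a median of 3.25 and 1 at an unadjusted p under 0.05. Of the 8 epithelial markers 6 were negative, with a median of -1.78 and 3 at an unadjusted p under 0.05. None of these markers was called, and their part in the interaction of the matrix genes was not tested.

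Chains are modified, trimerised, secreted and bound by other proteins, and 3 lists of such partners were read in the same fits. Of 31 genes of collagen biosynthesis and crosslinking, 28 were tested and none passed in knockdown, with 17 higher and 11 lower. The smallest p were those of P4ha2, a prolyl hydroxylase subunit, at -0.93 ± 0.23 (SE; limma adjusted p = 0.112), and of Bmp1, the procollagen C-proteinase, at 0.72 ± 0.24 (SE; limma adjusted p = 0.169). Among 10 other basement membrane components 4 were higher and 6 lower. Smoc1, a secreted calcium-binding protein, was at -1.98 ± 0.42 (SE; limma adjusted p = 0.0919) and Nid1, which links laminin to type IV collagen, at 2.26 ± 0.87 (SE; limma adjusted p = 0.218). Of 12 tested laminin and collagen receptors 7 were higher and 5 lower. Itgb4 and Itga6, which pair as the hemidesmosome integrin that binds the laminin of Lama3 and Lamb3, were at 1.72 ± 0.48 (SE; limma adjusted p = 0.127) and 1.05 ± 0.29 (SE; limma adjusted p = 0.127).

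In the site comparison of NT controls no partner gene passed either. Of the biosynthesis genes 10 were higher and 18 lower in lung, led by Pcolce2, an enhancer of procollagen processing, at 1.61 ± 0.42 (SE; limma adjusted p = 0.232). Of the other basement membrane components 8 of 10 were higher, with the matrix glycoprotein gene Fbln1 at 2.19 ± 0.53 (SE; limma adjusted p = 0.213). The interaction of site and knockdown, with the culture set and not the line as its unit, passed in no partner gene. Plod2, a lysyl hydroxylase that sets crosslinks, was at 1.37 ± 0.32 (SE; limma adjusted p = 0.0710), and Hspg2, the basement membrane heparan sulfate proteoglycan perlecan, at 1.44 ± 0.36 (SE; limma adjusted p = 0.0808). The only gene of any list that passed in that test was the mesenchymal transcription factor gene Twist1, at 4.63 ± 0.76 (SE; limma adjusted p = 0.0277). It was at 4.12, 0.0674 and 2.75 CPM in the lung controls and at 41.8, 38.6 and 39.9 CPM in their knockdowns, which did not overlap. In liver, Twist1 in control and knockdown was at 114 and 52.8 CPM in 13-2, 101 and 42.3 in the first 42-2 set, and 61.5 and 62.5 in the second. It was at 2.79, 5.96 and 0.0832 CPM in 6-3, and at 55.8, 26.0 and 35.6 CPM in G45-2. All 3 lung sets are among those of differing identity transcripts, so knockdown and this mismatch cannot be told apart there. Col12a1 was also above the lung controls in the 3 lung knockdowns. In 13-2, the first 42-2 set and G45-2, Twist1 was lower and Col12a1 higher in knockdown. In G45-2 Col12a1 went from 3.46 CPM to 48.7 and 48.5 CPM. Both were near their controls in the second 42-2 set, and in 6-3 Col12a1 was lower with both hairpins. A link between the levels of Twist1 and Col12a1 was not tested.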

How the data were processed

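The deposited table gives CPM values (reads scaled to the library total) for 16383 genes in 18 libraries, with 1 column per library as the authors deposited it; the build is mm9 per the submitters' processing notes, and no source used here names the aligner, counter, annotation or gene filter. RNA was extracted with a column kit and 1.3 µg of total RNA went into each TruSeq library, per the labels' protocols. The low CPM values are whole multiples of 1 read (100% within 0.01 reads), so reads were recovered; the listed genes hold 99.0% to 99.6% of each total. Counting limits cover counting error only.

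Members were taken by symbol and placed in classes by a written list, and genes are matched to GENCODE M21 by Ensembl identifier for exon length and to RefSeq GRCm38.p6 for upstream windows. The members and lists were chosen with earlier results of these data known. The 12931 genes that reached 1 CPM in 4 or more libraries entered limma 3.58.1 (R 4.3.3) on log2(CPM + 1), two-sided, with the culture set as a block and Benjamini-Hochberg adjustment at 0.05 over all tested genes. A fold on this scale understates the change of low genes. The site comparison used line means of NT controls (2 lung, 4 liver lines), and the interaction of site and knockdown took both hairpins as 1 term. The set pairs libraries that the labels give to the same line and code. Quasi-likelihood tests in edgeR 4.0.16 on recovered reads, other pseudocounts, filters, scalings and blocks, and leaving out sets or lines were the alternatives. Values in every library are given for members that reach 50 CPM in 1 library, except 1 member that is counted in its class but not reported here; in each comparison the 2 members of smallest p per class are named, and likewise 1 or 2 partner genes per list. Other genes singled out were chosen after their values were seen. The fits were tested on simulated data.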

Additional observations from a re-analysis of the deposited data

Results flagged for a closer look

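Of 44 groups of 4 to 10 libraries examined over the 22 members that reach 50 CPM, 4 held 1 library whose gap to the rest passed Dixon's 95% limit on the log2(CPM + 1) scale, a gap that chance gives in about 1 in 20 groups. All 4 were among the 5 liver NT controls. Col5a2, the second chain of type V collagen, was at 25.7 CPM in the first 42-2 control and at 0.0723 to 1.23 CPM in the others. Col5a3 was at 82.6 CPM in the G45-2 control and at 0.0681 to 0.539 CPM in the others. Lama3 was at 101 CPM in the same library and at 0.616 to 1.30 CPM elsewhere. Col6a2 was at 101 CPM in the second 42-2 control and at 17.2 to 26.7 CPM in the others.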

How the results depend on the processing

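The 48 results for named members were recomputed under up to 25 settings, which gave 795 values, of which 788 kept their direction and their side of the threshold. The direction turned in 4. Without the 5 sets of differing identity transcripts Col11a2 was at -0.021 in knockdown and -0.091 for shRNA 1, and Col6a1 at -0.00421 for shRNA 2 minus shRNA 1; with the cell line as the block Lamb1 was at 0.00844 in that difference. The other 3 passed the threshold: Lamb3 at -7.04 in the interaction without 6-2, and Col5a1 at -1.68 and Col8a1 at -4.43 in the site comparison without 6-3.

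The counts over all genes moved more than the members. In knockdown the 5 genes called were 84 with no replicate block, 51 with the cell line as the block, 0 to 8 when 1 set was left out, and 0 with no filter on low values, without the 5 sets or by edgeR. For shRNA 1 the 0 genes called were 10 with no replicate block, 2 with the cell line as the block and 0 to 2 when 1 set was left out. For the interaction the 65 were 36 with no filter, 109 after quantile normalization, 4 with no replicate block, 13 by edgeR and 23 to 122 when 1 set was left out. For lung minus liver the 4 were 2 with a pseudocount of 0.5, 19 with no filter, 14 with a filter of 5 CPM, 76 with the 8 controls as separate libraries, 1 by edgeR and 0 to 167 when 1 line was left out. Members called stayed at 0 but for 0 to 1 in the interaction and 0 to 2 in the site comparison when a set or line was left out. Leaving out a lung line leaves 1 lung line, which is then assumed to vary like the others. Without the block no member was called in any comparison. Depth limits the low chains: below 3 reads (0.117 to 0.357 CPM) a level cannot be told from 0.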
